A study of Mus musculus with 6 samples.

Results

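The genes described here encode centrosomal proteins. They are the genes whose symbol is Cep followed by a digit, together with Pcnt, Pcm1, Cdk5rap2, Cntrl, Ninl, Nin, Sass6, Stil, Cenpj and Ofd1. Among 18193 mouse genes with a probe set of exactly 1 symbol, 47 fitted this rule, 37 by a Cep symbol and 10 by name, and each was represented by its brightest probe set. One of them, Cep83os, matches the rule by its letters and is a transcript from the strand opposite Cep83 rather than a centrosomal protein gene. The genes were read on 6 Affymetrix 3' expression arrays of C57BL/6 CD4 T cells, 1 array for each combination of 2 genotypes (wild type and Ezh2 KO) and 3 culture conditions. Naive spleen cells were activated for 2 days with antibodies to the T cell receptor beta chain (10 µg/ml, on the plate) and to CD28 (1 µg/ml) in IL-2 at 15 ng/ml, then kept for 3 days without the antibodies, 5 days in all. Th1 cultures also held 1 ng/ml IL-12 and an antibody to IL-4, Th2 cultures held 10 ng/ml IL-4 and an antibody to interferon gamma, and unpolarized cultures held both blocking antibodies. The labels do not name the Ezh2 allele, what drives its deletion, the age of the mice or whether the arrays of a genotype came from separate animals, so the p-values below measure only the spread between these arrays.

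A centrosome is a pair of centrioles, short barrels of microtubules, set in a matrix that nucleates microtubules. A cell copies its centrioles once per division cycle: Plk4, recruited by Cep152 and Cep192, acts with Stil and Sass6 to build a cartwheel on which a daughter centriole grows, and Cenpj, Cep120, Cep135 and Cep295 set its length and stability. Pcnt and Cdk5rap2 organize the surrounding matrix, Pcm1 scaffolds satellites that carry proteins to the centrosome, and distal and subdistal appendages mark the mature centriole, where they dock membranes and anchor microtubules. Lymphocytes lack a primary cilium, and T cells are known to move the centrosome to the contact with a target cell.

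Of the 47 genes, 44 had enough signal to be tested, meaning a highest intensity of at least 64.43, the median of all deposited values. Cep290, Cep295nl and Ninl did not reach it on any of the 6 arrays, and 41 of the 44 were at or above it on every array. Cep112, Cep126 and Cep131 were under it on some arrays. Across the tested centrosomal genes the median log2 difference, Ezh2 KO minus wild type, was -0.36, or 1.28-fold lower, against -0.07 over all 11572 tested genes. The mean difference was below 0 for 37 of the 44 genes (84.1%), against 57.2% of all tested genes. Lower readings in Ezh2 KO in each of the 3 cultures were seen for 32 of them (72.7%, against 36.3%). Only 2, Cep63 and Cep120, were higher in each culture (4.55%, against 26.2%).

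Of the 44 tested genes, 10 fell in Ezh2 KO and 0 rose (limma, culture blocked, adjusted p under 0.05 by Benjamini-Hochberg over all tested genes). The share that fell, 22.7%, stands beside 7.98% of all tested genes, and the share that rose beside 8.35%, 16.3% in either direction. At an unadjusted p under 0.05, 24 were lower (54.5%, against 21.8%) and 0 higher (against 16.9%). The genes that fell were Cep43, Cep97, Cep57, Cep89, Cep192, Stil, Cep135, Cep152, Cep128 and Pcnt. They were 1.34-fold to 2.11-fold lower, and for all 10 the readings of the 3 Ezh2 KO arrays lay below those of the 3 wild type arrays. The same separation held for 17 further tested centrosomal genes that did not pass, 27 in all (61.4%, against 27.5% of all tested genes), and the opposite one for 0 (against 20.1%). The adjusted p-values of the 10 genes that fell ran from 0.0208 to 0.0497 in a limma fit with 2 residual degrees of freedom. With each array centred on its median intensity 3 genes fell (Cep43, Cep57 and Cep97, against 3.55% of all genes), and without the filter on low values, or with any 1 culture left out, 0 fell or rose. At an unadjusted p under 0.05 in limma, 23 of 47 were lower without that filter (against 2667 of 18193 genes, or 14.7%). Without the unpolarized pair, 15 of 44 were lower at that level (against 1738 of 11572 genes, or 15.0%). The counts were 18 of 44 without the Th1 pair (against 1704 of 11572, or 14.7%) and 17 of 44 without the Th2 pair (against 1566 of 11572, or 13.5%). The scaling also set the balance over all genes: 924 genes fell and 966 rose as deposited, and 411 fell and 862 rose after centring. Under both scalings 37 of the 44 centrosomal genes had a mean below 0, and with quantile normalization 36, since Cep78 turned to 0.018.

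**Figure D1:**
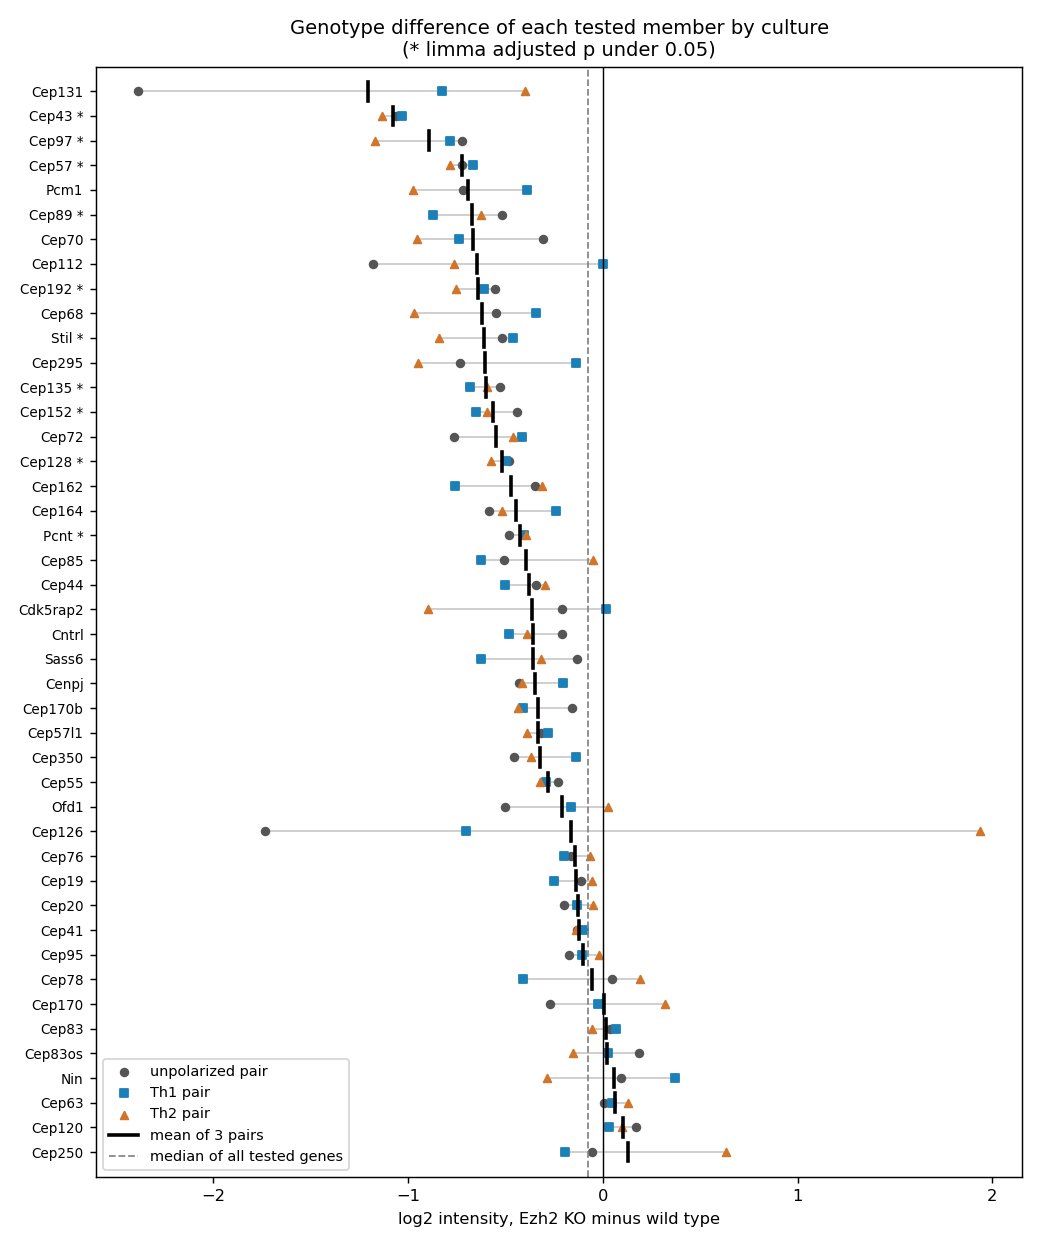
Log2 intensity difference, Ezh2 KO minus wild type, for each of the 44 tested genes, with 1 symbol per culture (unpolarized, Th1, Th2), a black bar at the mean of the 3 pairs and an asterisk where the adjusted p was under 0.05. Most means lie left of the dashed median of all tested genes (-0.07), and the widest spreads over cultures are those of the dim genes Cep131, Cep112 and Cep126.

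The upstream sequences of the 4 genes with the largest significant falls are shown, so their shared direction follows from the choice. Each is the 250 bases before the annotated gene start, from RefSeq on build GRCm38.p6, written 5' to 3' on the gene's strand. They lie at chr17:8165268-8165517 (plus strand), chr16:55934849-55935098 (minus strand), chr9:13827054-13827303 (minus strand, 1 of 2 annotated starts) and chr7:35396813-35397062 (plus strand). Capitals mark exact matches, on either strand, to letters that recur in promoters of cell cycle genes: CCAAT, the cell cycle homology region (TTTGAA or TTTCGAA) and 4 forms of the E2F site (TTTCCCGC, TTTGGCGC, TTTCGCGC, TTTGCCGC).
Cep43: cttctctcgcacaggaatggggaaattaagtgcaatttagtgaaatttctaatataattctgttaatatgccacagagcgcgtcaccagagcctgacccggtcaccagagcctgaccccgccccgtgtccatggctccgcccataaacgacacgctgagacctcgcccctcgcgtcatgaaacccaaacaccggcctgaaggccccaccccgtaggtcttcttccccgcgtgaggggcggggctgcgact
Cep97: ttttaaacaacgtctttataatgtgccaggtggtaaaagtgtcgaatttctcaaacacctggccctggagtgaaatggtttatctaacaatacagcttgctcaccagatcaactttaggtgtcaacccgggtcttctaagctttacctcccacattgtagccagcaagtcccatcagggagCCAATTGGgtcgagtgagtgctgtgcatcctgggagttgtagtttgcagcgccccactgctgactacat
Cep57: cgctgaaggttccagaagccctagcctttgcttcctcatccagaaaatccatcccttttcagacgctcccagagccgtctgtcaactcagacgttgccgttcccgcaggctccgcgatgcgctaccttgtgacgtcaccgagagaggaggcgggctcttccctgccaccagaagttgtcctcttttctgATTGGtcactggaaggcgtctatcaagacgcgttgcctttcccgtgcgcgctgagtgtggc
Cep89: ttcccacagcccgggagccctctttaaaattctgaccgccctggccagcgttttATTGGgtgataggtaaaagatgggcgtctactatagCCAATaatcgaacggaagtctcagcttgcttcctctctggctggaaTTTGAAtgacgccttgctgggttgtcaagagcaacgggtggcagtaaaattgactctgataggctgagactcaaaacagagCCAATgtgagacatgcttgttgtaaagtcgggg
The Cep43 window held none of these letters, the Cep97 window an overlapping pair of CCAAT matches on opposite strands, the Cep57 window 1 and the Cep89 window 3, with 1 match to the cell cycle homology region. Upstream windows were found for 41 of the 47 genes, including 9 of the 10 that fell. CCAAT was present in 7 of the 10 windows of those 9 genes (70.0%) and in 21 of the 53 windows of all the centrosomal genes (39.6%). Of 32851 windows of all annotated genes, whether tested here or not, 33.8% held it. The 2 Cep57 windows overlap and hold the same CCAAT match. Counted by gene, CCAAT was present for 6 of 9, 18 of 41 and 10133 of 27025. By window, the cell cycle homology region was in 1 of 10, 8 of 53 (15.1%) and 16.5%, and the E2F letters were in 1 of 10, 2 of 53 (3.77%) and 1.86%. A match is a description of the letters and does not show a bound site.

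Genes of centriole assembly held 5 of the 10 falls. Of the 13 tested, 5 fell and 0 rose (against 7.98% and 8.35% of all tested genes), with a median log2 difference of -0.39. Cep97, which caps centrioles together with Ccp110 and restrains cilium growth, read 1198, 1128 and 1136 in wild type (unpolarized, Th1 and Th2, the order used throughout) against 727.4, 655.1 and 505.4 in Ezh2 KO. All Ezh2 KO readings were well under all wild type readings, and the log2 difference was -0.89 ± 0.24 (SD, n = 3 pairs; limma adjusted p = 0.0359). Cep192, which recruits Plk4 and seeds the mitotic matrix, went from 2610, 2525 and 2770 to 1777, 1657 and 1647. Its 3 pairs differed little from each other, and it fell by 0.64 ± 0.10 (adjusted p = 0.0337). Cep152, the other Plk4 receptor, read 819.8, 853.1 and 866.6 in wild type against 605.3, 543.6 and 573.4 in Ezh2 KO. It fell by 0.56 ± 0.11 (adjusted p = 0.0401), again with no overlap between genotypes.

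The cartwheel genes gave a mixed picture. Stil, the Plk4 activator, went from 1528, 1448 and 1531 to 1067, 1051 and 854.7, a fall by 0.61 ± 0.20 that only just passed (adjusted p = 0.0497). Cep135, which links the cartwheel to the centriole wall, read 270.0, 263.7 and 275.3 in wild type against 187.6, 164.4 and 182.6 in Ezh2 KO. Its fall of 0.60 ± 0.08 (adjusted p = 0.0340) was of similar size in each culture. Sass6, the cartwheel's structural core, read 504.8, 608.6 and 559.6 against 460.9, 395.0 and 450.0, without overlap, and at -0.36 ± 0.25 did not pass (adjusted p = 0.142). Cenpj, which controls centriole length, was also lower on every Ezh2 KO array (1033, 914.5 and 1127 against 767.3, 795.4 and 847.1; -0.35 ± 0.13, adjusted p = 0.0861). Cep63 and Cep120 stood apart from these. Cep63, the binding partner of Cep152, read 428.7, 409.5 and 460.9 in wild type against 430.6, 423.9 and 504.2 in Ezh2 KO. The ranges overlapped (0.06 ± 0.06, adjusted p = 0.609). Cep120, needed for centriole elongation, read 754.9, 824.4 and 754.2 against 851.1, 843.5 and 807.8, a difference of 0.10 ± 0.07 (adjusted p = 0.419). The remaining 4 genes of this role, Cep295, Cep85, Cep44 and Cep76, had mean differences of -0.60, -0.39, -0.38 and -0.14 and did not pass.

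Matrix genes were lower in Ezh2 KO in every pair of arrays but 1. Of the 6 tested, 2 fell and 0 rose (against 7.98% and 8.35% of all tested genes), with a median of -0.49. Cep57, which ties the matrix to centrioles and microtubules, read 2540, 2143 and 2552 in wild type against 1542, 1351 and 1483 in Ezh2 KO. It fell by 0.72 ± 0.06, or 1.65-fold (adjusted p = 0.0277). Pcnt, the pericentrin scaffold, went from 1071, 1027 and 1131 to 768.9, 777.1 and 861.1, a smaller fall of 0.42 ± 0.05 (adjusted p = 0.0478). Cdk5rap2, the activator of microtubule nucleation, was the exception within this role: it read 379.0, 281.6 and 372.2 in wild type against 327.4, 285.3 and 199.8 in Ezh2 KO. The Th1 pair was level and the Th2 pair was far apart, which gave -0.36 ± 0.48 (adjusted p = 0.296). Cep70, Cep72 and Cep57l1 were lower on every Ezh2 KO array than on any wild type array, at -0.66 ± 0.33, -0.55 ± 0.19 and -0.33 ± 0.05, and did not pass (adjusted p = 0.0722, 0.0555 and 0.0729).

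The largest significant fall was in Cep43, a centriolar protein, also known as FOP, that works with Cep350 in anchoring microtubules. It read 1613, 1702 and 1657 in wild type against 772.1, 834.0 and 754.8 in Ezh2 KO, more than 2-fold apart in every culture. The log2 difference was -1.08 ± 0.05 (2.11-fold lower, adjusted p = 0.0208). Cep43 is grouped here with the satellite genes, of which 5 were tested, 1 fell and 0 rose (median -0.69). Over all tested genes 7.98% fell and 8.35% rose. Cep20, a near relative of Cep43, read 3469, 3299 and 3106 against 3026, 3015 and 2998. The difference of -0.13 ± 0.07 did not pass (adjusted p = 0.332). Pcm1, the satellite scaffold, went from 855.6, 854.6 and 931.9 to 521.4, 652.9 and 474.0. The genotypes did not overlap, and at -0.69 ± 0.29 it missed the threshold (adjusted p = 0.0591). Cep131, another satellite protein, had the lowest mean difference of all tested members, -1.20 ± 1.05, and did not pass (adjusted p = 0.148). It read 98.66, 125.6 and 132.3 in wild type against 18.91, 70.92 and 100.5 in Ezh2 KO, so the size rested on 1 dim Ezh2 KO unpolarized reading, and it was -0.61 without that pair. Ofd1, a satellite and distal centriole protein, read 466.2, 384.3 and 355.5 against 329.9, 343.1 and 362.9, with overlap (-0.21 ± 0.27, adjusted p = 0.330).

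Appendage genes were split. Of the 8 tested, 2 fell and 0 rose (against 7.98% and 8.35% of all tested genes), with a median of -0.21. Cep89, a distal appendage protein, went from 834.6, 831.3 and 815.7 to 583.6, 455.3 and 529.8, a fall of 0.67 ± 0.18 (adjusted p = 0.0407). Cep128, a subdistal appendage protein, read 565.1, 543.1 and 541.8 in wild type against 405.4, 384.7 and 363.6 in Ezh2 KO, a fall of 0.52 ± 0.05 (adjusted p = 0.0382). Cntrl, the subdistal protein centriolin, was lower on each Ezh2 KO array (2080, 2218 and 2120 against 1799, 1588 and 1621; -0.36 ± 0.14) and did not pass (adjusted p = 0.0857). Cep164, which docks membranes at the distal appendages, gave -0.45 ± 0.18 (adjusted p = 0.0737). The other appendage genes had means between -0.06 (Cep78) and 0.06 (Nin). Cep83, which sits at the base of the distal appendages, read 1132, 1242 and 1197 in wild type against 1164, 1302 and 1151 in Ezh2 KO. Cep83os gave 205.7, 230.7 and 237.3 against 234.2, 235.0 and 213.3, and its upstream window overlaps that of Cep83 by 176 bases on the opposite strand. Neither differed beyond the spread of its pairs (0.02 ± 0.06, adjusted p = 0.891, and 0.02 ± 0.17, adjusted p = 0.904). Nin, the microtubule anchor ninein, read 997.2, 892.1 and 911.1 against 1066, 1154 and 747.2, with the Th2 pair opposite to the others (0.06 ± 0.33, adjusted p = 0.804).

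**Figure D2:**
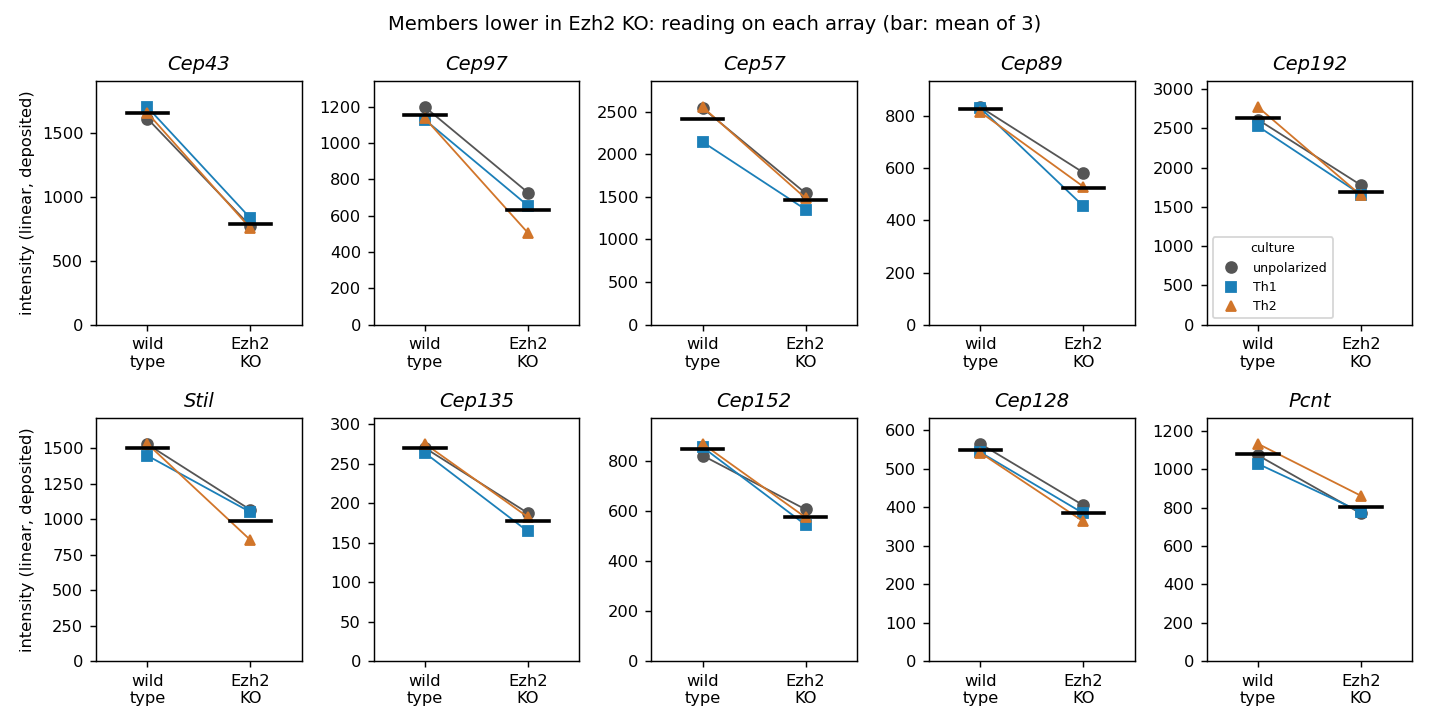
Deposited intensity (linear axis from 0) of the 10 genes that fell, 1 symbol per array joined within each culture, with a bar at the mean of the 3 arrays of a genotype. In every panel all 3 Ezh2 KO readings are below all 3 wild type readings, from 2.11-fold on average for Cep43 to 1.34-fold for Pcnt.

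Of the 2 linker genes, which hold the centriole pair together, Cep68 was lower on every Ezh2 KO array (1181, 1125 and 1202 against 807.8, 887.9 and 614.4; -0.62 ± 0.32, adjusted p = 0.0776). Cep250, the linker's anchor, was dimmer and overlapped (135.0, 120.8 and 84.25 against 129.7, 105.8 and 130.8), and at 0.13 ± 0.44 it had the highest mean of the tested members (adjusted p = 0.674). Cep55, which recruits the abscission machinery to the midbody at the end of division, read 5974, 7038 and 6284 in wild type against 5104, 5750 and 5026 in Ezh2 KO. The genotypes did not overlap, and the difference of -0.28 ± 0.05 did not pass (adjusted p = 0.0927). The remaining 8 tested genes act on microtubules or cilia or have less settled roles. All 8 had means below 0 (against 57.2% of all tested genes), and 0 fell or rose (against 7.98% and 8.35%). They were Cep112 (-0.65), Cep162 (-0.47), Cep170b (-0.33), Cep350 (-0.32), Cep126 (-0.16), Cep19 (-0.14), Cep41 (-0.12) and Cep95 (-0.10). Cep112 read 58.84, 7.294 and 83.19 in wild type against 26.01, 5.051 and 48.98 in Ezh2 KO, and Cep126 read 56.90, 75.65 and 10.74 against 17.14, 46.54 and 43.39. Both were under the low-signal limit on 5 of 6 arrays, so their sizes are uncertain. Among the genes not tested, Ninl, a ninein relative, read 3.364, 12.60 and 0.349 in wild type against 17.71, 19.13 and 17.41 in Ezh2 KO, all far under that limit. Cep290, a transition zone protein of cilia, read 33.21 to 53.34 in wild type and 43.49 to 53.13 in Ezh2 KO, and Cep295nl 3.583 to 24.73 and 8.082 to 26.89.

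Most of these genes have more than 1 probe set, which gives a second look at the same arrays. Of the 10 genes that fell, Cep43, Stil, Cep135 and Cep152 have 1 probe set each and so no second look. The 47 genes carry 102 probe sets, and 27 of the tested genes had at least 1 further probe set with a mean at or above the low-signal limit, 38 in all. Of these 38, 33 had the same sign of difference as the probe set that stood for the gene. Both Cep192 probe sets were lower in each culture: the second went from 479.9, 502.7 and 509.7 to 271.1, 239.2 and 212.5, a log2 difference of -1.05 ± 0.22. A second Cep97 probe set read 770.0, 550.6 and 588.8 against 428.5, 249.6 and 200.3 (-1.18 ± 0.36). The other bright Cep97 probe sets gave smaller differences, -0.69 ± 0.60 and -0.27 ± 0.25. The second Cep57 probe set also gave a smaller difference, -0.40 ± 0.17, than the one that stood for the gene (-0.72 ± 0.06). Further bright probe sets gave -0.35 ± 0.23 and -0.56 ± 0.50 for Cep128, and -0.62 ± 0.35 for Pcnt. The further Cep89 probe sets gave -0.64 ± 0.23 and, at lower readings, -1.15 ± 0.42, and the 3 other bright Pcm1 probe sets gave -0.72, -0.58 and -0.45. The 5 with the opposite sign belonged to Cep85, Cep95, Cep76, Cep83 and Cep83os. For Cep85 the probe sets disagreed in every culture: the second read 291.8, 391.4 and 371.4 in wild type against 356.2, 493.4 and 478.3 in Ezh2 KO (0.33 ± 0.04), while the first gave -0.39 ± 0.31. The opposite-signed probe sets of Cep95, Cep76, Cep83 and Cep83os had means of 0.18, 0.06, -0.04 and -0.09, each within the spread of its pairs. The 2 further Nin probe sets were higher in each Ezh2 KO culture (0.38 ± 0.16 and 0.44 ± 0.08), unlike the one that stood for the gene. When every probe set was tested on its own, 8 of 87 centrosomal probe sets, from 6 genes, fell and 0 rose, against 4.08% of 21563 probe sets that fell.

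**Figure D3:**
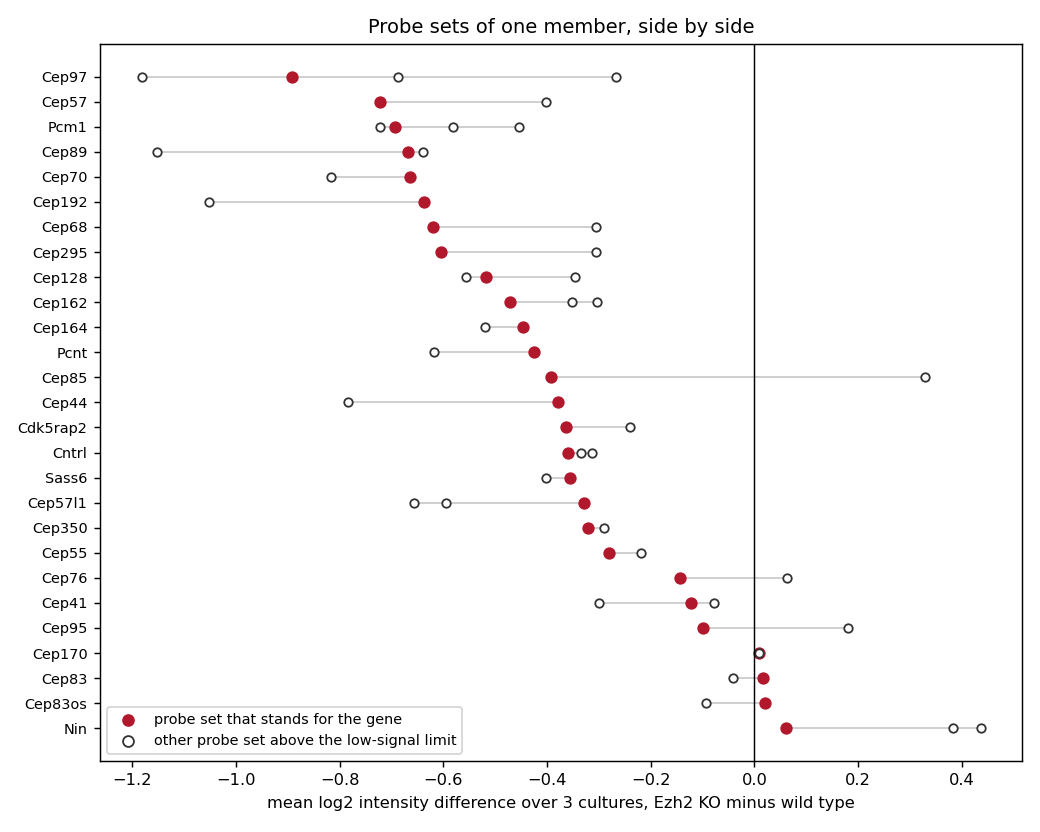
Mean log2 difference, Ezh2 KO minus wild type, of every probe set at or above the low-signal limit (mean reading) for the 27 tested genes with more than 1 such probe set. Filled points stand for the gene and open points are its other probe sets. Of the 38 open points, 33 lie on the same side of 0 as the filled point of their gene, and Cep85 has the widest gap across 0.

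The median genotype difference of the 44 genes was nearly the same in each culture: -0.39 in unpolarized, -0.36 in Th1 and -0.39 in Th2 cultures, against -0.06 for all tested genes in each of them. Readings were lower in Ezh2 KO for 38 of the 44 genes in unpolarized cultures (86.4%, against 55.6%), 37 in Th1 (84.1%, against 56.1%) and 37 in Th2 (84.1%, against 55.2%). In the 32 genes lower in all cultures, the largest difference was in unpolarized cultures for 8, in Th1 for 10 and in Th2 for 14. A 2-fold or larger difference within 1 culture, which has no replicate and no test, was seen for few genes. In unpolarized cultures 4 were at least 2-fold lower (9.09%, against 5.80% of tested genes) and 0 higher (against 7.55%). They were Cep131, Cep126, Cep112 and Cep43. In Th1 cultures it was Cep43 alone (2.27%, against 4.42%), with 0 higher (against 7.28%), and in Th2 cultures Cep43 and Cep97 (4.55%, against 5.98%), with Cep126 at least 2-fold higher (2.27%, against 9.61%).

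Of the 44 genes, 0 passed in Th1 against unpolarized, Th2 against unpolarized or Th1 against Th2 (limma with genotype as a block), and 0 of all 11572 tested genes did (0%). The first 2 contrasts share the unpolarized arrays. At an unadjusted p under 0.05, Cep170 was higher in Th1 than in unpolarized cultures (by 0.44 in wild type and 0.69 in Ezh2 KO). Cep170 is a subdistal appendage and microtubule protein, and its limma adjusted p was 0.857. Cep112 was lower there (-2.38 and -1.20, limma adjusted p = 0.857), at readings mostly under the low-signal limit. It was also the 1 gene lower in Th1 than in Th2 (limma adjusted p = 0.526). Cep76, which limits centriole copying, was higher in Th2 than in unpolarized cultures (0.37 and 0.46, limma adjusted p = 0.655). Each of these counts was 1 of the 44 genes (2.27%), below the share of all tested genes in the same contrast and direction. The shares of all tested genes at that level were 2.70% higher and 2.76% lower for Th1 against unpolarized, 3.41% higher and 3.28% lower for Th2 against unpolarized, and 3.53% higher and 4.06% lower for Th1 against Th2. A 2-fold or larger culture difference, which has no test, was seen for few genes, all of them among the dim Cep112, Cep126 and Cep131. In wild type it was 1 for Th1 against unpolarized (against 6.06% of tested genes), 1 for Th2 against unpolarized (against 6.14%) and 2 for Th1 against Th2 (against 6.68%). In Ezh2 KO it was 3 (against 5.12%), 2 (against 6.50%) and 1 (against 6.08%). The median Th1 minus unpolarized difference over the 44 genes was -0.02 in both genotypes, and Th2 minus unpolarized was 0.0019 in wild type and -0.06 in Ezh2 KO.

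Partner genes of the same structures that lack a Cep symbol were read from lists chosen by function. Each list count below stands beside 7.98% of all tested genes that fell and 8.35% that rose. Of 18 tested genes of the gamma-tubulin ring, which nucleates microtubules, and of augmin, 3 fell and 0 rose (median -0.41): Mzt2, a small subunit of the ring, by 0.89 ± 0.13, Tubg1, gamma-tubulin itself, by 0.49 ± 0.09, and Mzt1 by 0.49 ± 0.07. Haus7, an augmin subunit, gave -0.64 ± 0.30 and did not pass. Among 27 partners of centriole duplication and appendages, 5 fell and 1 rose (median -0.38). Kif24, a kinesin that acts with Cep97 and Ccp110 at the centriole cap, read 606.5, 519.1 and 627.9 in wild type against 327.1, 293.9 and 298.2 in Ezh2 KO. It fell by 0.93 ± 0.13 (adjusted p = 0.0262), and Ccp110 itself gave -0.42 ± 0.12 (adjusted p = 0.0629). Mdm1, Rttn, Spice1 and Cetn2 were the others that fell. Fbxw7, a ubiquitin ligase subunit that targets cyclin E, rose from 958.0, 973.9 and 905.7 to 1901, 1929 and 1562 (0.92 ± 0.12, adjusted p = 0.0256). Plk4, the kinase that starts centriole copying, read 4467, 4914 and 4905 against 4021, 4186 and 3932 and did not pass (-0.23 ± 0.08, adjusted p = 0.137). Wdr62, at -1.50 ± 0.98, was under the low-signal limit on 5 of 6 arrays and did not pass (adjusted p = 0.0927).

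Of 31 tested satellite and cilium genes, 6 fell and 1 rose (against 7.98% and 8.35% of all tested genes), with a median of -0.16. Of 12 tested subunits of the intraflagellar transport trains, which T cells are known to use at the synapse although they lack a cilium, 2 fell and 0 rose. Ift81 and Ift80 fell by 1.30 ± 0.36 and 0.99 ± 0.14. All Ezh2 KO readings lay below all wild type readings for 5 of the 12 (against 27.5% of all tested genes) and above them for 3 (against 20.1%). Besides Ift81 and Ift80, those below were Ift172, Ift140 and Ift46, at -0.89 ± 0.62, -0.71 ± 0.47 and -0.54 ± 0.20. These 3 did not pass (limma adjusted p = 0.105, 0.104 and 0.0596). Those above were Ift57, Ift20 and Ift88, with differences of 0.56 ± 0.21, 0.36 ± 0.13 and 0.28 ± 0.21 that did not pass (limma adjusted p = 0.0583, 0.0814 and 0.176). Ift81 read 371.8, 299.8 and 423.1 in wild type against 187.5, 129.1 and 130.6 in Ezh2 KO, and Tctn1, of the ciliary transition zone, fell by 0.94 ± 0.17. The satellite gene Ccdc14 gave -0.97 ± 1.63, which rested on 1 dim Ezh2 KO Th1 reading of 28.25. Rab11a, a recycling endosome GTPase, was the 1 that rose, by 0.69 ± 0.08. Among 32 genes of the spindle and of abscission, 8 fell and 1 rose (median -0.40). Bora, the Aurora A activator, fell by 0.85 ± 0.17 and Aspm, at spindle poles, by 0.75 ± 0.23, while the mitotic kinase Nek6 rose by 1.36 ± 0.20.

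Genes of the division cycle were read beside these, and their part in the centrosomal result was not tested. Of 22 tested G2/M genes, 5 fell and 0 rose (against 7.98% and 8.35% of all tested genes). Their median was -0.39, and 21 means were below 0 (against 57.2% of all tested genes). Bub1 read 6174, 6601 and 6402 in wild type against 3942, 4003 and 3565 in Ezh2 KO (-0.74 ± 0.10, adjusted p = 0.0295). Bub1b and Ttk, which like Bub1 act in the spindle checkpoint, fell by 0.68 ± 0.04 and 0.64 ± 0.12. Of 27 tested G1/S genes, 0 fell and 1 rose, with a median of -0.22 and 22 means below 0. Ccnd2, which encodes cyclin D2, rose by 0.78 ± 0.14. The lowest means were those of Tyms (-0.61 ± 0.33), Mcm3 (-0.47 ± 0.11) and Mcm4 (-0.43 ± 0.12), which did not pass (limma adjusted p = 0.0808, 0.0508 and 0.0599). The G2/M list shares Plk1 with the duplication and appendage partners and Cdk1 with the spindle and abscission genes. In bulk arrays, fewer dividing cells and less RNA per cell cannot be told apart.

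**Figure D4:**
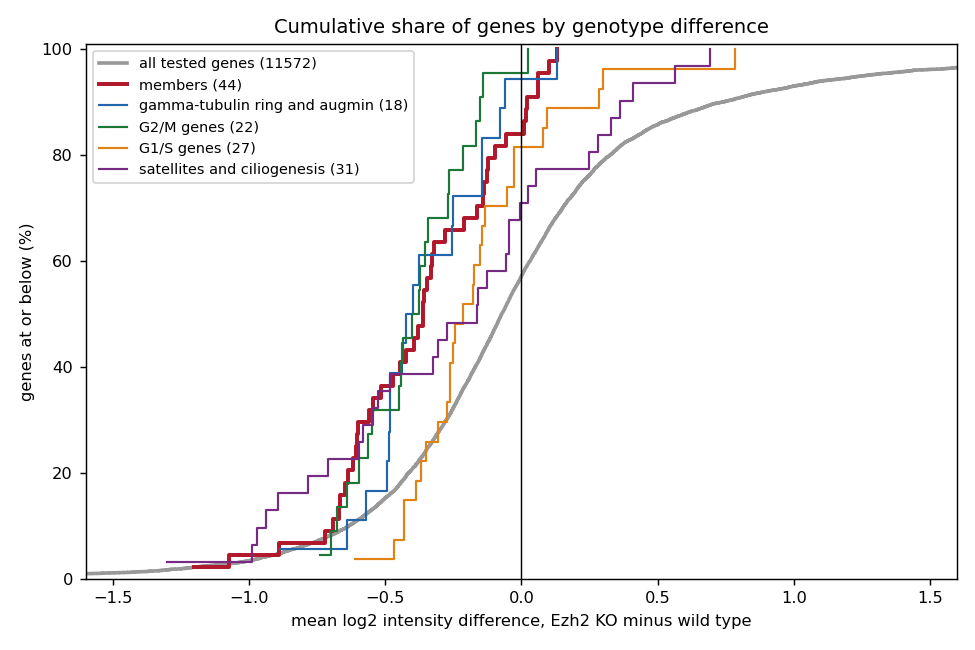
Cumulative share of genes (%) at or below each mean log2 difference, Ezh2 KO minus wild type, for the 44 tested centrosomal genes, all 11572 tested genes and 4 related lists. The curve of the centrosomal genes runs left of that of all genes through most of its range, with medians of -0.36 and -0.07, and close to those of the G2/M genes (-0.39) and the gamma-tubulin ring and augmin genes (-0.41).

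All arrays had a trimmed mean of 500.003, and their medians lay between 61.3 and 69.1. Ezh2 itself was 1.43-fold lower in Ezh2 KO, from 7002, 6553 and 7677 to 4971, 4876 and 4946 (adjusted p = 0.0437), so much signal remained. The files do not say whether its probe set lies in the deleted part, and one outside it checks nothing. The 6 CD4 T cell markers with a probe set had summed readings of 44560 to 48780 in wild type and 47660 to 52770 in Ezh2 KO, with 0 called. They were split. Cd4 (-0.55 ± 0.32) and Cd5 (-0.51 ± 0.16) had all Ezh2 KO readings below all wild type readings, as did 27.5% of all tested genes. Cd3e, Cd3g and Cd28 had all of them above, as did 20.1%, and Cd3d overlapped. Summed B cell markers (5 genes) were 140.4 to 317.7 in wild type and 387.2 to 1014 in Ezh2 KO, where Ms4a1 rose and Pax5 and Cd79a never reached the low-signal limit. NK markers (3 genes) summed to 89.95 to 193.4 and 146.8 to 406.0, where Klrk1 rose and Ncr1 and Tyrobp stayed under the limit. Of 8 myeloid markers 6, and of 2 erythroid markers both, stayed under it, with sums of 260.5 to 306.3 against 265.6 to 327.1 and 32.78 to 50.82 against 38.19 to 57.66. CD8 markers summed to 389.3 to 414.4 and 373.7 to 539.8. The part of these other cell types in the centrosomal result was not tested.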

How the data were processed

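The authors' deposited values are linear intensities, 1 per probe set and array, made with Affymetrix Expression Console per the submitters' processing notes, with no version named. How probes were summarized is not stated in those notes or the labels. The arrays carry equal means after trimming 2% at each end, so they had been scaled to one target. Of 45101 probe sets, 34945 had 1 symbol in the platform's annotation, 932 several and 9160 none. Entrez identifiers of 34741 matched RefSeq names of GRCm38.p6.

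Intensities under the 20th percentile (11.33) were set to it before the log2 step. Each gene was read from its probe set of highest mean, and entered the test if at least 1 array gave 64.43 or more, which is the median over all values. limma 3.58.1 in R 4.3.3 fitted culture plus genotype to all 6 arrays (2 residual degrees of freedom, prior 1.66), two-sided, with Benjamini-Hochberg adjustment over 11572 genes. Errors are SDs over 3 pairs, 1 per culture. Precision is limited by having 6 arrays. The fit was tested on simulated data. Probe sets differ in brightness, so readings are not compared between genes.

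The members, gene lists and tests were chosen with earlier results of these data known. Named with values are members past the threshold, the 5 highest and 5 lowest mean differences, members 2-fold apart in any culture, the 3 with the highest and lowest mean level, the 10 members without a Cep symbol and up to 3 leading genes of each list. Other genes, such as Plk4 and Ccp110, were named after their values were seen. The SD of a pair difference includes any difference between cultures.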

Additional observations from a re-analysis of the deposited data

Results flagged for a closer look

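For 3 tested genes the genotype difference ran in opposite directions in different cultures, by 1.2-fold or more each way. The difference between cultures was not tested, since each culture has 1 pair of arrays. Cep126 gave -1.73 on the log2 scale in unpolarized and -0.70 in Th1 cultures, but 1.94 in Th2 cultures, where the wild type reading of 10.74 was below the floor. Cep170 gave -0.27 in unpolarized and 0.32 in Th2 cultures, and its second probe set, too, was lower in Ezh2 KO in unpolarized cultures (350.0 against 265.2) and higher in Th2 cultures (294.1 against 466.4). Nin gave 0.37 in Th1 and -0.29 in Th2 cultures, while its 2 further probe sets were higher in Ezh2 KO in each culture.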

How the results depend on the processing

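The count of centrosomal genes that fell depended on the processing more than their direction did. It was 10 of 44 as reported, 3 of 44 with median centring and 0 of 47 without the low filter. A filter on the mean at the 60th percentile gave 23 of 40, and an intensity trend in the prior 23 of 44. It was 16 of 44 with no culture block, 6 with every probe set on its own and 0 to 0 with 1 culture left out. All genes that fell numbered 924 (7.98%) as reported and 411 (3.55%) with median centring. They were 0 without the low filter, 1879 (21.1% of 8893) with the 60th percentile filter and 2206 (19.1%) with the trend. With no culture block they were 1571 (13.6%), and 0 to 0 with 1 culture left out. The genes that rose numbered 1777 with the trend, 0 without the low filter and 0 to 0 with 1 culture left out, against 966. Leaving out a culture leaves 1 residual degree of freedom, so no calls there says little, and 37, 37 and 39 of the 44 genes had a mean below 0 without the unpolarized, Th1 and Th2 pair. Quantile normalization, no floor, a floor at the 40th percentile and the mean of all probe sets gave 9, 9, 12 and 8 falls, of which 9, 9, 10 and 7 were among the 10, beside 7.29%, 7.31%, 10.3% and 7.10% of all genes. Under these alternatives 0 centrosomal genes rose, and 0 passed a culture contrast.

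Among the 44 tested genes, none of the 10 that fell turned its sign under these alternatives, and 9 that did not pass turned theirs under at least 1. With 1 pair left out these were Cep126 (-1.22 to 0.62), Cep250 (-0.12 to 0.29), Nin (-0.10 to 0.23), Cep78 (-0.18 to 0.12), Cep170 (-0.15 to 0.15), Cep83os (-0.064 to 0.11) and Cep83 (-0.0079 to 0.054). With the mean of all probe sets they were Cep63 (-0.19), Cep83 (-0.088), Cep83os (-0.037) and Cep41 (0.029), and with quantile normalization Cep78 (0.018). The cause was not tested. The culture block pairs the arrays, and the labels give no replicate numbers. Leaving out 1 genotype was not run for the culture contrasts, since 1 array per culture would remain. Signal over background limits Cep112, Cep126 and Cep131.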
